A study of Mus musculus with 9 samples.

Results

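A set of 10 genes that the tumor suppressor p53 switches on after DNA damage was followed through the livers of DEN + WAD mice: Cdkn1a, Btg2, Ccng1, Mdm2, Bax, Phlda3, Eda2r, Trp53inp1, Sesn2 and Zmat3. The genes were chosen by name, with earlier results of these data known, and all 10 were found among the 16755 genes of the deposited table. RNA-seq was done on liver of 9 male C57BL/6 mice in 3 groups of 3, all of them carrying a floxed Scd2 gene (Scd2f/f). The first group was untreated. The second received diethyl nitrosamine (DEN, 10 mg/kg), a carcinogen that alkylates DNA in hepatocytes, at 2 weeks of age and a Western alcohol diet (WAD) from 6 weeks of age, and its tissue is the tumor-adjacent liver (TAL) of the study. The third had the same regimen and also carried a Cre recombinase under the Col1a1 promoter (Scd2f/f;Col1a1-Cre, written Scd2f/f;CC), meant to delete Scd2, the gene of a fatty acid desaturase, in hepatic stellate cells (HSC) and portal fibroblasts, the liver cells in which the study found Col1a1. The treated tissue is called TAL in most of the study and NTL, with the letters not spelled out, where its methods describe the RNA. The labels give 4 months of diet, while the methods of the study give a longer time, and the labels do not give the age of the untreated mice, for which the study states only a range over all its mice.

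p53 is a transcription factor that is held at a low level by the ubiquitin ligase MDM2 and is stabilized when kinases such as ATM and ATR sense damaged DNA. It then binds pairs of short sites near its target genes, and the products stop the cell cycle, repair DNA, limit oxidative damage or start apoptosis, while some of them, MDM2 above all, switch p53 off again. In liver, hepatocytes injured by a carcinogen raise these genes, and CDKN1A (p21) is the best known brake on their division.

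The table holds 1 mean per group, a least-squares mean of normalized read counts, and no value per mouse. The authors' own p-values, which stand beside the means, were not used. The values below therefore come without a spread between mice and without a test, and each ratio is a quotient of the authors' group means without a replicate check. The depth of each sample is unknown. The 75th percentile of the means was 15.5 in untreated liver, 15.5 in TAL of Scd2f/f and 15.4 in TAL of Scd2f/f;CC mice. The targeted gene Scd2 had a mean of 2.46 in untreated liver, 6.47 in TAL of Scd2f/f and 1.87 in TAL of Scd2f/f;CC mice. Albumin, the defining product of hepatocytes, had means of 21300, 20900 and 22700 in the same order. Since whole tissue was sequenced, fewer cells that express a gene and less RNA of it per cell cannot be told apart. Both comparisons with Scd2f/f TAL share that group, so they are set side by side and not as independent evidence.

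Cdkn1a encodes p21, the inhibitor of cyclin-dependent kinases through which p53 stops cells before they copy their DNA, and lies at chr17:29090976-29100727 on the plus strand (GRCm38, GENCODE M21). Its mean was 0.464 in untreated liver, 4.33 in TAL of Scd2f/f and 1.80 in TAL of Scd2f/f;CC mice. Scd2f/f TAL was 9.33-fold above untreated liver, a log2 ratio of 3.22, and 0.153% of the 11784 genes with a mean over the groups of at least 1 had a higher ratio. In Scd2f/f;CC TAL the mean was 0.416 of that in Scd2f/f TAL, a log2 ratio of -1.27, and 0.781% of the genes had a lower ratio. It was still 3.88-fold above untreated liver. Cdkn1a thus had the highest ratio of the 10 genes in TAL of either genotype over untreated liver. A constant of 1 on every mean brought the first log2 ratio to 1.86.

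A p53 half-site is 10 bases long, with 3 purines, a C, 2 bases that are A or T, a G and 3 pyrimidines. A pair of them makes a full site. Pairs were searched with a spacer of up to 13 bases and up to 3 mismatches over the pair, none of them at the C or G. The half-site reads alike on both strands, so one search covers both. RefSeq promoter windows on GRCm38.p6, from 250 bases before a start site to 50 after it, were found for 8 of the 10 genes, and those of Trp53inp1 and Zmat3 were not used here. Cdkn1a has 2 start sites, 2790 bases apart, with a window each. The window of the upstream start, chr17:29090729-29091028 on the plus strand, is printed because it holds 2 exact half-sites, at 73 and 51 bases before the start. Capitals mark exact half-sites in this window and in those printed later.
Cdkn1a upstream start: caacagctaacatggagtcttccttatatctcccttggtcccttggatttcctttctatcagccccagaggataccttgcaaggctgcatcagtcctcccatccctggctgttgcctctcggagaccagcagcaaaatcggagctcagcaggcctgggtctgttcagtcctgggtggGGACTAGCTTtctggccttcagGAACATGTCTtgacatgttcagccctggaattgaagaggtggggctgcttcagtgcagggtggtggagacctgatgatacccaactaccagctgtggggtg
The second half-site is followed directly by another with 1 mismatch, and both make a full site at chr17:29090928-29090947.
Cdkn1a full site: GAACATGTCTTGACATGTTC
The first half-site pairs with the second over 12 bases without a mismatch, so these 2 full sites share a half-site. The window of the downstream start held none.

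**Figure D1:**
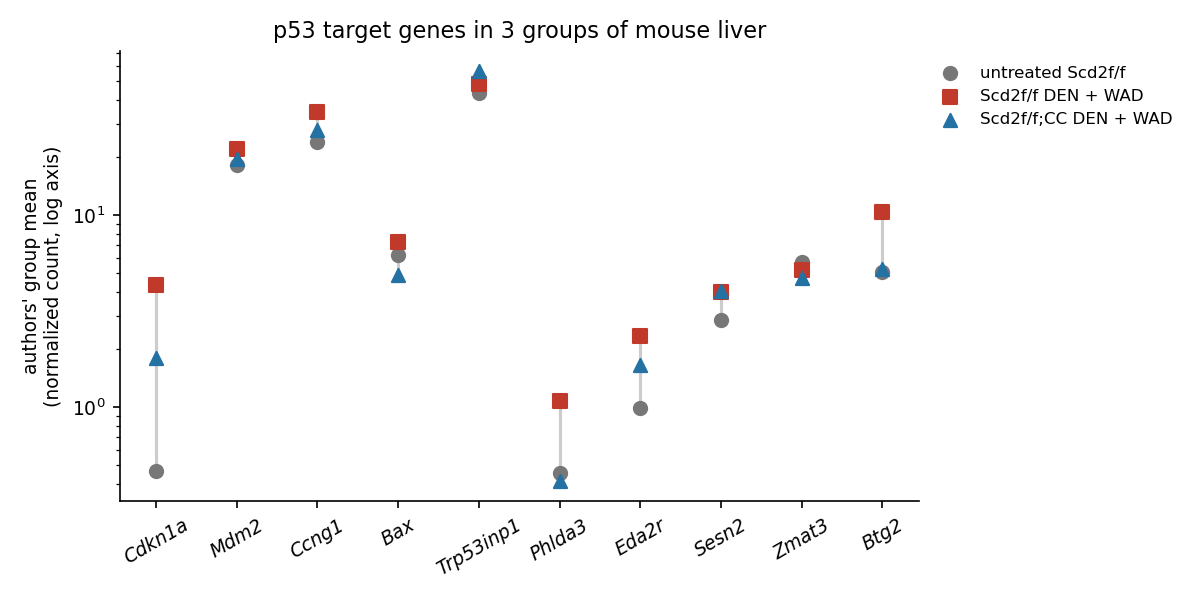
Mean normalized read count of each of the 10 p53 target genes (log axis) in untreated Scd2f/f liver (circles), Scd2f/f TAL (squares) and Scd2f/f;CC TAL (triangles), 1 authors' mean per group and no error. Cdkn1a spans 0.464 to 4.33, while Mdm2 spans 18.2 to 22.1 and Zmat3 4.68 to 5.67.

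Btg2, an antiproliferative gene whose protein recruits the deadenylase that shortens mRNA tails, lies at chr1:134075170-134079120 on the minus strand. Its mean was 5.04 in untreated liver, 10.4 in TAL of Scd2f/f and 5.24 in TAL of Scd2f/f;CC mice. It was 2.06-fold higher in Scd2f/f TAL than in untreated liver, and 6.01% of genes had a higher ratio. Between the genotypes, Scd2f/f;CC over Scd2f/f, the ratio was 0.504, and 1.56% of genes had a lower one. The mean in Scd2f/f;CC TAL was 1.04-fold that of untreated liver, so the high value was that of Scd2f/f TAL. The printed means have 3 digits, and rounding leaves the second ratio between 0.501 and 0.507, just short of a 2-fold difference, and the first between 2.05 and 2.08, just past it.

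Ccng1 encodes cyclin G1, a cyclin that brings a phosphatase to MDM2 and so feeds back on p53, and lies at chr11:40748552-40755311 on the minus strand. Its mean was 24.1 in untreated liver, 34.3 in TAL of Scd2f/f and 27.9 in TAL of Scd2f/f;CC mice. Scd2f/f TAL was 1.42-fold above untreated liver, and the Scd2f/f;CC mean was 0.813 of it. Mdm2, the ubiquitin ligase that marks p53 for degradation, lies at chr10:117688875-117710758 on the minus strand. Its means were 18.2, 22.1 and 19.6 in the same order, a ratio of 1.21 for the regimen and of 0.887 between the genotypes. Both feedback genes were thus highest in Scd2f/f TAL and lowest in untreated liver, and neither ratio came near 2.

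The promoter windows of Ccng1 and Mdm2 are printed as those of feedback genes that each hold 1 exact half-site, 185 and 186 bases before the start. They lie at chr11:40755237-40755536 and chr10:117710709-117711008, both on the minus strand.
Ccng1: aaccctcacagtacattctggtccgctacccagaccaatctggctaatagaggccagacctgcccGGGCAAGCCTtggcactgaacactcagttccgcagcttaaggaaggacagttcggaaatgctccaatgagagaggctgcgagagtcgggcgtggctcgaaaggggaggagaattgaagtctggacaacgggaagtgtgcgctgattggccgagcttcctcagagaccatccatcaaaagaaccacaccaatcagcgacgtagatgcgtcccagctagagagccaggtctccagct
Mdm2: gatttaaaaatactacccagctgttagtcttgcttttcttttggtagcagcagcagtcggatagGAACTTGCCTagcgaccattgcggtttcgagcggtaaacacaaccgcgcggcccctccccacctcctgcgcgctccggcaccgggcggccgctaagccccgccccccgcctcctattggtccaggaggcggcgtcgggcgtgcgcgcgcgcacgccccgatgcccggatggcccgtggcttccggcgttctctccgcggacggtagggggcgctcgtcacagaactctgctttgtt
In Ccng1 the half-site is the second of a full site with 1 mismatch at chr11:40755462-40755481.
Ccng1 full site: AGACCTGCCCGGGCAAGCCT
The same half-site also pairs with one farther upstream over 5 bases with 2 mismatches. In Mdm2 no full site with up to 3 mismatches was found in this window, which says nothing of p53 binding elsewhere in the gene.

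Bax encodes a pore-forming protein of the mitochondrial outer membrane that carries out apoptosis, and lies at chr7:45461697-45466898 on the minus strand. Its mean was 6.21 in untreated liver, 7.27 in TAL of Scd2f/f and 4.86 in TAL of Scd2f/f;CC mice. The regimen gave a ratio of 1.17 in Scd2f/f mice. The ratio of Scd2f/f;CC to Scd2f/f TAL was 0.669, with 4.93% of genes lower, and Scd2f/f;CC TAL was at 0.783 of untreated liver. The annotation places Gm45808, another protein-coding gene on the same strand, over part of Bax, and reads of the shared stretch cannot be assigned with certainty. Gm45808 had means of 2.65, 2.80 and 3.03.

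The Bax window at chr7:45466849-45467148 on the minus strand is printed for its exact half-site 201 bases before the start, which forms full sites with 2 mismatches with a neighbour on either side.
Bax: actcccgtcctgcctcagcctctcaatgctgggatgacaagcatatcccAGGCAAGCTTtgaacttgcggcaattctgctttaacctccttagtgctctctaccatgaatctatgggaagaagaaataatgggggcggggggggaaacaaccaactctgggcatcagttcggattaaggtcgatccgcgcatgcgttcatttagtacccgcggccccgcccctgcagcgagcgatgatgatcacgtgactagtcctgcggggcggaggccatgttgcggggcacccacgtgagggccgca
One more full site, with 3 mismatches and a spacer of 11 bases, begins 5 bases before the start. The windows of Btg2, Phlda3, Eda2r and Sesn2 held neither an exact half-site nor a full site. In all, 4 of the 8 genes had an exact half-site in a window, where 9.55% of the 27025 genes with a window did, and 3 had a full site, against 17.4%. Of the 4 genes with a half-site, only Cdkn1a differed by 2-fold or more in any of the comparisons, while Btg2, Phlda3 and Eda2r, which had none in these windows, differed by 2-fold or more between Scd2f/f TAL and untreated liver. A match is a description of letters, and no binding was measured.

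**Figure D2:**
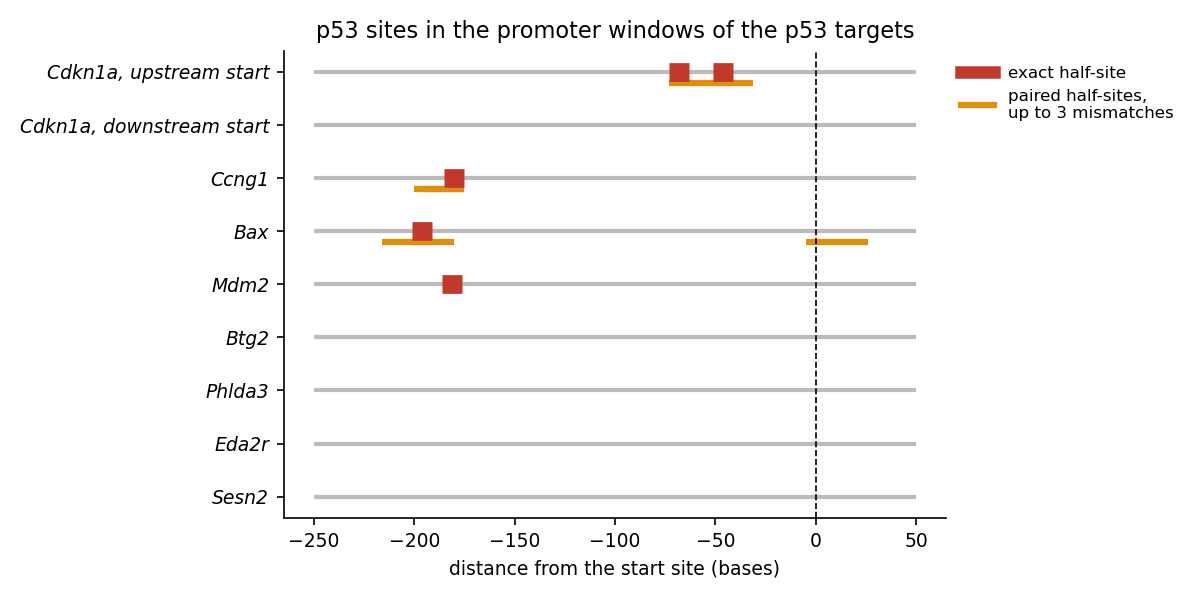
Exact p53 half-sites (red) and full sites with up to 3 mismatches (orange) in the RefSeq promoter windows of 8 p53 target genes, against the distance from the start site in bases, 1 grey line per window. The sites of Cdkn1a stand at 73 and 51 bases before its upstream start, those of Ccng1, Mdm2 and Bax between 185 and 216 bases before theirs, and 1 site of Bax spans the start.

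Phlda3, which encodes a pleckstrin homology protein that competes with AKT for membrane lipids, lies at chr1:135766119-135769136 on the plus strand. Its mean was 0.452 in untreated liver, 1.08 in TAL of Scd2f/f and 0.414 in TAL of Scd2f/f;CC mice. That is 2.39-fold higher in Scd2f/f TAL than in untreated liver and a ratio of 0.383 between the genotypes, the lowest of the 10 genes. Both other groups had nearly the same mean, at a ratio of 0.916. Its mean over the groups was 0.649, under the limit of 1 set for counting, and a constant of 1 on every mean brought its log2 ratios from 1.26 and -1.38 to 0.52 and -0.56.

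Eda2r, the receptor of the TNF family that binds ectodysplasin A2, lies at chrX:97333840-97377216 on the minus strand. Its mean was 0.984 in untreated liver, 2.34 in TAL of Scd2f/f and 1.66 in TAL of Scd2f/f;CC mice. Scd2f/f TAL was 2.38-fold above untreated liver. The Scd2f/f;CC mean was 0.709 of it and still 1.69-fold above untreated liver. Trp53inp1, which encodes a nuclear protein that helps p53 induce cell death and also takes part in autophagy, lies at chr4:11156431-11174379 on the plus strand. Its means were 43.1, 48.4 and 56.2, so it was highest in Scd2f/f;CC TAL, at 1.16 of Scd2f/f TAL and 1.30 of untreated liver.

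Sesn2 encodes sestrin 2, a leucine sensor that restrains mTORC1 and supports antioxidant defence, and lies at chr4:132492032-132510501 on the minus strand. Its mean was 2.83 in untreated liver, 4.00 in TAL of Scd2f/f and 4.05 in TAL of Scd2f/f;CC mice. It was 1.41-fold higher with the regimen, and nearly level between the genotypes, at a ratio of 1.01. Zmat3, an RNA-binding zinc finger protein that regulates splicing, lies at chr3:32334792-32366014 on the minus strand. Its means were 5.67, 5.20 and 4.68, and it was the only one of the 10 genes that was highest in untreated liver.

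Seen by gene, Cdkn1a, Mdm2, Ccng1, Eda2r and Btg2 stood highest in Scd2f/f TAL and lowest in untreated liver, with Scd2f/f;CC TAL between them. Bax and Phlda3 were also highest in Scd2f/f TAL and were lowest in Scd2f/f;CC TAL. Trp53inp1 and Sesn2 were highest in Scd2f/f;CC TAL. Whether neighbours in any of these orders differ beyond the spread between mice cannot be told from means.

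Of the 10 genes, 9 had a mean over the groups of at least 1, and these were counted beside the 11784 genes above the same limit. Between Scd2f/f TAL and untreated liver, 3 of the 9 were at least 2-fold higher, Cdkn1a, Eda2r and Btg2, and 0 were at least 2-fold lower. Of all genes counted, 6.4% were at least 2-fold higher and 2.89% at least 2-fold lower. Cdkn1a and Eda2r were under a mean of 1 in untreated liver and passed the limit through TAL, so the count is a description and no support. The median log2 ratio of the 9 genes was 0.50, beside 0.03 over all genes, and 8 of 9 were above 1 where 52.7% of genes were. At 1.5-fold the count was again 3 where 12.8% of genes were that much higher, and at 3-fold it was 1, Cdkn1a, where 2.89% of genes were.

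**Figure D3:**
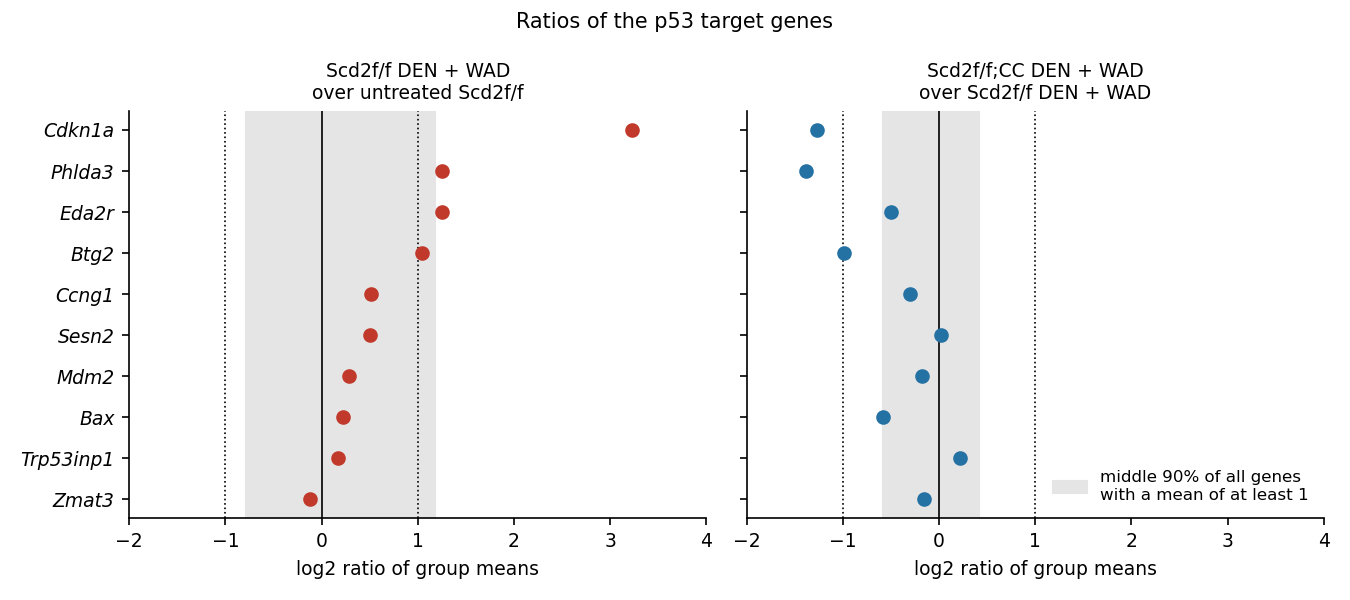
log2 ratios of group means of the 10 p53 target genes for Scd2f/f TAL over untreated liver (left) and Scd2f/f;CC TAL over Scd2f/f TAL (right), with dotted lines at a 2-fold difference and the middle 90% of the 11784 genes in grey. Cdkn1a, at 3.22 on the left and -1.27 on the right, lies outside the grey band on both sides, while Mdm2, Zmat3, Sesn2, Ccng1, Eda2r and Trp53inp1 lie inside it on the right.

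Between the genotypes, 1 of the 9 genes, Cdkn1a, was at least 2-fold lower in Scd2f/f;CC mice and 0 were at least 2-fold higher, where 1.54% of all genes were that much lower and 0.645% that much higher. At 1.5-fold, Btg2 joined Cdkn1a, and 4.9% of all genes were lower by that limit. Bax missed the 1.5-fold limit narrowly, with a mean 1.496-fold higher in Scd2f/f TAL. At 3-fold the count was 0, and 0.382% of all genes were that much lower. The median log2 ratio of the 9 genes was -0.30, beside 0.01 over all genes, with 7 of 9 below 1 where 48.4% of genes were. Between Scd2f/f;CC TAL and untreated liver, 1 of the 9 genes, again Cdkn1a, was at least 2-fold higher, where 4.51% of genes were, and 0 were at least 2-fold lower, where 2.55% of genes were. At 1.5-fold the count was 2, with Eda2r, where 10.9% of genes were, and at 3-fold it was 1, where 1.47% were. The median log2 ratio was 0.21, beside 0.04 over all genes, and 7 of 9 were above 1 where 54.3% of genes were.

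Levels of different genes were compared only after division by length, as the mean count per kilobase of annotated exons. On this scale Ccng1 was highest in untreated liver, at 6.86, followed by Trp53inp1 at 6.66, Bax at 3.94 and Mdm2 at 3.58. Cdkn1a was the lowest of the 10, at 0.131. In Scd2f/f TAL Cdkn1a reached 1.22 per kilobase and ranked 6 of 10, above Sesn2 at 1.15 and below Btg2 at 3.79. In Scd2f/f;CC TAL it was at 0.507 per kilobase and ranked 7 of 10. Trp53inp1, at 8.68, had then passed Ccng1, at 7.94. Cdkn1a, with the widest ratios over untreated liver, thus stayed below Ccng1, Mdm2, Bax, Trp53inp1 and Btg2 per kilobase in every group.

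p53 itself is controlled mostly as a protein. Trp53, its gene, named here after its values were seen, had means of 6.23, 6.11 and 5.68 in untreated liver, Scd2f/f TAL and Scd2f/f;CC TAL. Of 18 genes listed for p53 and its regulators, 14 had a mean of at least 1, and 0 of these differed by 2-fold in any of the comparisons. Of all genes counted, 9.29% differed by 2-fold between Scd2f/f TAL and untreated liver and 2.18% between the genotypes. Between Scd2f/f;CC TAL and untreated liver 7.06% did. For so short a list a count of 0 lies near these shares. The largest ratio for the regimen was that of Chek2, a kinase that phosphorylates p53 after DNA breaks, with means of 0.875, 1.53 and 1.27. Chek2 was under a mean of 1 in untreated liver and passed the limit through TAL, so its place is a description and no support. Trp53bp1, which marks sites of DNA breaks, was at 4.58, 6.88 and 6.93, and the kinase Atm at 14.7, 20.6 and 21.3, both nearly level between the genotypes. Mdm4, the partner of MDM2 that masks p53, was lower with the regimen, at 20.6, 14.7 and 18.0. Ppm1d, a phosphatase that reverses the marks of ATM, was at 3.01, 3.66 and 2.95. The median log2 ratio of the 14 genes was 0.27 for the regimen and 0.02 between the genotypes.

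Another 38 p53 targets were listed by role and all were found, 31 of them with a mean of at least 1. Between Scd2f/f TAL and untreated liver, 5 of the 31 were at least 2-fold higher, beside the 6.4% of all genes, with a median log2 ratio of 0.29. At least 2-fold lower was 1 of the 31, beside 2.89% of all genes. Among targets for arrest, Gadd45a, a stress sensor that binds PCNA, had means of 1.42, 3.30 and 1.91. Plk2, a polo-like kinase, was at 4.82, 10.2 and 6.79. Both were highest in Scd2f/f TAL, as Cdkn1a and Btg2 were. Btg1, the close relative of Btg2, was instead highest in Scd2f/f;CC TAL, at 14.9, 30.5 and 34.5. Plk3 was at 22.2, 22.4 and 13.2, a ratio of 0.589 between the genotypes.

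Among targets for apoptosis, Pmaip1, which encodes the BH3 protein NOXA, had means of 0.340, 1.70 and 1.04, a ratio of 5.0 for the regimen and 0.612 between the genotypes. Its mean over the groups was 1.03, so it passed the limit only through TAL, and its place in the counts is a description and no support. Bbc3, which encodes the BH3 protein PUMA, was at 1.62, 2.55 and 1.80. Apaf1, the core of the apoptosome, was at 2.43, 4.46 and 3.16, and the death receptor Fas at 6.95, 12.2 and 12.1. All 4 were highest in Scd2f/f TAL, with Fas nearly level between the genotypes. Triap1, which blocks the apoptosome, was lower with the regimen, at 6.21, 4.06 and 4.70.

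Among targets for DNA repair, 0 of 6 differed by 2-fold in any of the comparisons. The shares of all genes counted were 9.29% for the regimen, 2.18% between the genotypes and 7.06% between Scd2f/f;CC TAL and untreated liver. A count of 0 of 6 lies near these shares. Xpc, the sensor of global nucleotide excision repair, had the widest ratio for the regimen, with means of 8.37, 13.3 and 11.9. Among metabolic targets the median log2 ratio was -0.19 for the regimen, below that of the 9 counted genes. Ddit4, which restrains mTORC1 as Sesn2 does, had means of 3.62, 1.69 and 0.982, a ratio of 0.467 for the regimen and 0.271 between Scd2f/f;CC TAL and untreated liver. Ephx1, an epoxide hydrolase of xenobiotic metabolism, was higher with the regimen, at 121, 214 and 179, and Sco2, a chaperone of cytochrome c oxidase, was at 5.36, 8.27 and 9.18. Of the feedback and remaining targets, Cyfip2, which binds actin regulators, was at 1.20, 3.52 and 2.22, and Dcxr, a carbonyl reductase, at 26.9, 18.5 and 24.2.

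Between Scd2f/f;CC and Scd2f/f TAL, 0 of these 31 targets differed by 2-fold, where 2.18% of all genes counted did. Gadd45a, Plk3, Plk2, Pmaip1, Ddit4 and Cyfip2 were lower by at least 1.5-fold and 0 were higher by that limit. Of all genes counted, 4.9% were lower and 2.35% higher by that limit. The median log2 ratio of the 31 targets was -0.15. Between Scd2f/f;CC TAL and untreated liver, 2 of the 31 were at least 2-fold higher, Pmaip1 and Btg1, and 1 was at least 2-fold lower, Ddit4. The shares over all genes counted were 4.51% and 2.55%. The targets whose log2 ratios over untreated liver lay nearest to those of Cdkn1a were Pmaip1, at a distance of 0.96 on the log2 scale, then Cyfip2 at 1.98 and Btg1 at 2.31. This likeness rests on the 3 group means, and Pmaip1 passed the limit only through TAL.

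**Figure D4:**
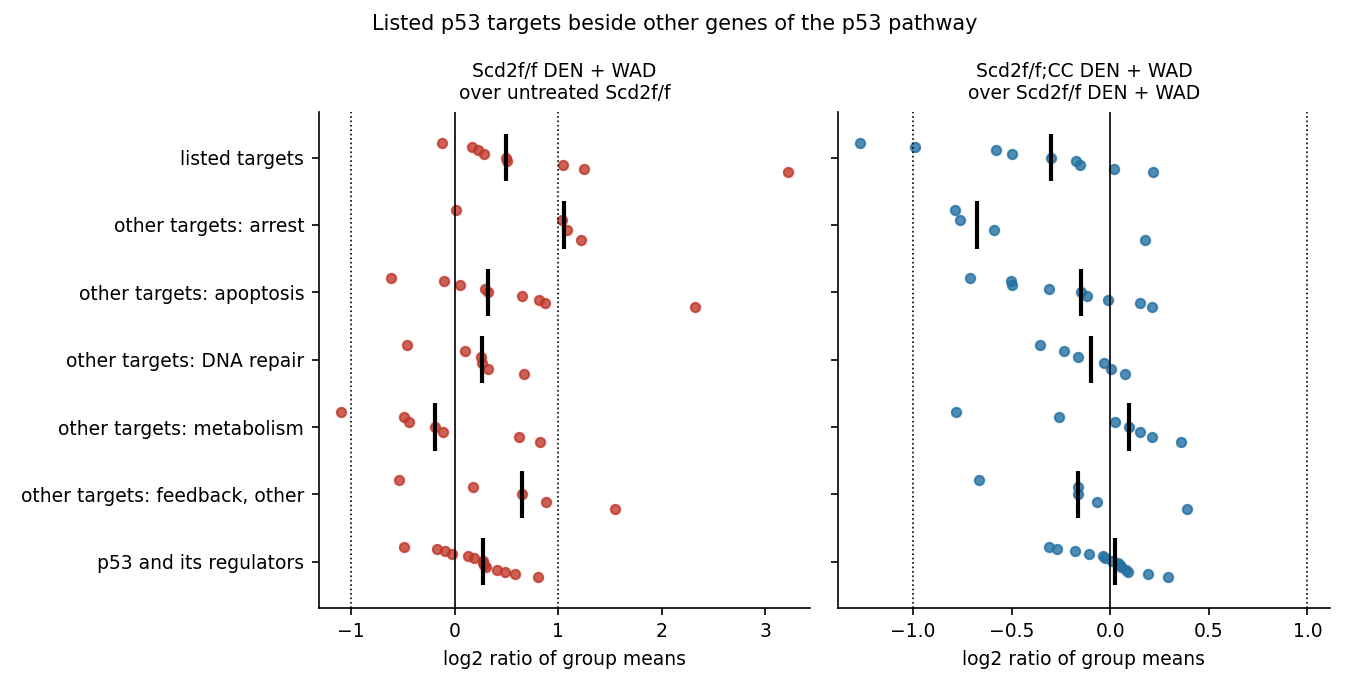
log2 ratios of group means, 1 point per gene with a mean of at least 1, for the listed p53 targets, other p53 targets by role and the regulators of p53, with Scd2f/f TAL over untreated liver on the left and Scd2f/f;CC TAL over Scd2f/f TAL on the right (dotted lines at 2-fold, black bars at medians). Medians on the left run from -0.19 for metabolic targets to 1.06 for the 4 arrest targets, and on the right from -0.68 for the same arrest targets to 0.10 for metabolic ones.

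Relatives of the 10 genes by family were listed too, and 3 of them, Btg1, Ccng2 and Sesn1, are also among the other targets. Of 21 listed, 18 had a mean of at least 1, with a median log2 ratio of -0.0033 for the regimen and -0.10 between the genotypes. Next to Btg2, Btg3 had means of 2.20, 1.81 and 0.690, a ratio of 0.381 between the genotypes. Next to Phlda3, Phlda1 was at 41.4, 42.5 and 19.9, with a ratio of 1.03 for the regimen and 0.468 between the genotypes. Next to Sesn2, Sesn3 was at 19.0, 31.6 and 28.6. Next to Ccng1, Ccng2 was at 4.96, 7.76 and 6.94. Eda, whose transcript encodes the ligand of Eda2r among its isoforms, was at 0.710, 1.08 and 1.36, and Zmat1, a relative of Zmat3, at 1.58, 2.90 and 3.17. Bcl2l1, the antiapoptotic relative of Bax, was at 16.0, 12.8 and 10.2.

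Genes for the repair of alkylated bases, the lesions that DEN leaves, were a further list. All 16 listed had a mean of at least 1, with a median log2 ratio of -0.13 for the regimen, and 0 differed by 2-fold between Scd2f/f TAL and untreated liver. Of all genes counted, 9.29% did. Alkbh2, a demethylase of alkylated DNA, came closest, with means of 3.12, 1.58 and 1.52, and Mpg, the glycosylase that removes alkylated purines, was at 3.60, 2.12 and 2.83. Apex1, the endonuclease of base excision repair, was at 10.4, 6.27 and 6.18, and Xrcc1, its scaffold, at 2.43, 3.83 and 3.94. Mgmt, which takes the alkyl group off guanine, was at 6.56, 7.10 and 8.23.

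Of 22 genes of the cell cycle that p21 represses, 8 had a mean of at least 1. Mki67, a marker of dividing cells, had means of 1.41, 8.32 and 4.86, and Top2a, the topoisomerase of mitotic chromosomes, 0.963, 3.88 and 2.33. Both were thus highest in Scd2f/f TAL, the group in which Cdkn1a was also highest. Rrm2, a subunit of ribonucleotide reductase, was at 4.09, 1.52 and 1.65, and Ccne2, a cyclin of S phase entry, at 3.53, 1.35 and 1.60, both lower with the regimen. In all, 3 of the 8 were at least 2-fold higher and 2 at least 2-fold lower in Scd2f/f TAL than in untreated liver, and 0 of the 8 differed by 2-fold between the genotypes, with median log2 ratios of 0.51 and 0.09. Of all genes counted, 6.4% were at least 2-fold higher and 2.89% lower with the regimen, and 2.18% differed by 2-fold between the genotypes. Top2a and Mcm5, a further gene of the 8, were under a mean of 1 in untreated liver and passed the limit through TAL. The 14 genes under the limit gave other values. Of these, 11 were at least 2-fold higher and 1, Ccne1, at least 2-fold lower in Scd2f/f TAL than in untreated liver. Without a limit on the mean, 1570 of all 16755 genes were at least 2-fold higher and 785 lower, against 754 and 341 of the 11784 above it. All 14 were lower in Scd2f/f;CC than in treated Scd2f/f mice, where 48.4% of the genes above the limit were. By at least 2-fold it was 5 of the 14, such as the mitotic cyclin Ccnb1 with means of 0.178, 0.810 and 0.296. No share was computed for the genes under the limit alone. The means of these 14 genes are low, down to 0.063 for Cdc25c in untreated liver, so their counts are a description and no support. Without the limit, 682 of all 16755 genes were at least 2-fold lower between the genotypes, against 181 of the 11784 above it. Over all 22 genes the median log2 ratio was 1.36 for the regimen and -0.61 between the genotypes, so the sign of the second depends on the limit.

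Markers of other cell types also differed between the groups. Of all genes counted, 6.4% were at least 2-fold higher and 2.89% at least 2-fold lower in Scd2f/f TAL than in untreated liver. Between the genotypes, Scd2f/f;CC over Scd2f/f, these shares were 0.645% and 1.54%. Of 8 macrophage markers, all 8 were at least 2-fold higher in Scd2f/f TAL than in untreated liver. Cd14 and Itgam, at 0.862 and 0.621 in untreated liver, passed the limit on the mean through TAL, so this count is a description and no support. The summed level of the 8 markers was 79.7, 277 and 221 in untreated liver, Scd2f/f TAL and Scd2f/f;CC TAL. Of 8 genes listed as markers of T and B cells, 1 had a mean of at least 1, Ptprc, which is expressed by leukocytes in general. It was over 2-fold higher in TAL of both genotypes than in untreated liver, with means of 5.82, 27.2 and 19.0. Ptprc made up most of the sums of that list, which were 7.39, 31.9 and 22.4. The sums thus do not stand for T and B cells alone. Of 9 counted markers of stellate cells and portal fibroblasts, 3 were at least 2-fold higher in Scd2f/f TAL than in untreated liver and 4 at least 2-fold lower in Scd2f/f;CC TAL than in Scd2f/f TAL, and the list of 10 summed to 202, 342 and 196. Col1a1 led both, with means of 4.69, 19.6 and 4.51. Of 4 counted cholangiocyte markers, 2 were at least 2-fold lower between the genotypes, and the 6 found summed to 64.3, 59.2 and 25.6. Of 8 endothelial markers, 2 were at least 2-fold higher with the regimen and 0 differed by 2-fold between the genotypes, with sums of 133, 177 and 177. Of 10 hepatocyte markers, 0 were at least 2-fold higher and 1 was at least 2-fold lower with the regimen, 0 differed by 2-fold between the genotypes, and the sums were 38566, 35894 and 40293. None of the 50 markers found was at 0 in any group. The part of these cells in the values of the p53 targets was not tested.

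**Figure D5:**
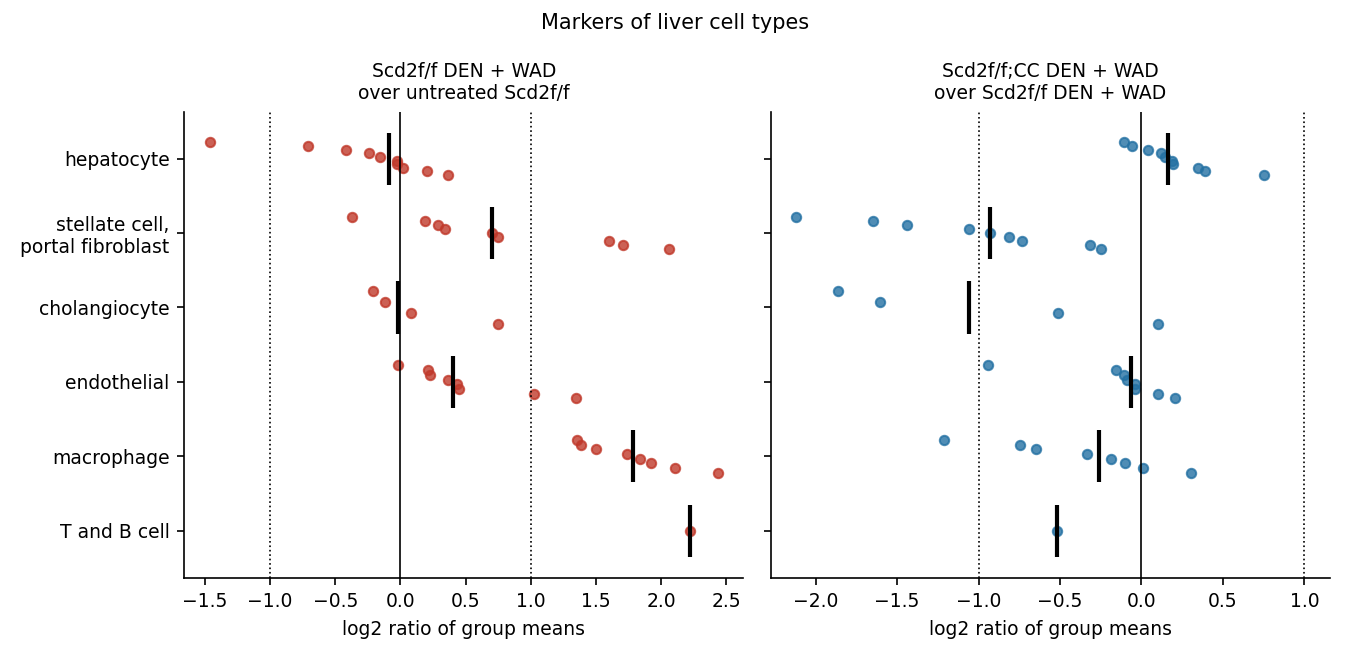
log2 ratios of group means of markers of 6 liver cell types, 1 point per gene with a mean of at least 1, for Scd2f/f TAL over untreated liver (left) and Scd2f/f;CC TAL over Scd2f/f TAL (right), with dotted lines at 2-fold and black bars at medians. All 8 macrophage markers lie past 2-fold on the left, of which Cd14 and Itgam passed the limit on the mean through TAL. On the right, 4 of 9 stellate cell and portal fibroblast markers lie past 2-fold on the lower side. The only point of the T and B cell list is Ptprc, a gene of leukocytes in general.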

How the data were processed

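Polyadenylated RNA from liver of 9 mice, 3 per group, was selected by the authors with Illumina TruSeq v2 beads and sequenced. The methods of the study do not say whether the library marks strand. Per the submitters' processing notes, STAR 2.6.1 and Partek 6 were used with build mm10. Per the methods of the study, gene counts came from Partek's E/M quantification against Gencode M3 and were normalized to the upper quartile. The deposited signal is the authors' least-squares mean of these counts per group, to 3 digits, and a repeated column of the treated Scd2f/f mean, identical in all 16755 genes, was not read. Columns of the authors' own comparisons (p-values, FDR, ratios and fold changes of 2 comparisons) were not used. The depth per sample is unknown, so no interval was computed. The planned test across mice was not run, since it needs values per mouse.

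Ratios were computed as quotients of group means without a pseudocount. Genes with a mean over the 3 groups of at least 1 (11784 of 16755) were counted at a limit of 2-fold. Genes named are the 10 targets, up to 4 genes per list with the widest ratio in each comparison, and others as stated. Lists and targets were chosen with earlier results of these data known. List names were matched by symbol. All 10 targets overlap the gene of the same name in GENCODE M21 on GRCm38, whose coordinates and exon lengths are given. Promoters are from RefSeq on GRCm38.p6. Counting and site search were tested on simulated data. Alternatives were pseudocounts of 0.1 and 1, centring, other limits on fold and mean, and full p53 sites. The software was Python 3.11.15, NumPy 2.4.6, pandas 2.3.3 and Matplotlib 3.10.9.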

Additional observations from a re-analysis of the deposited data

How the results depend on the processing

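Since 1 mean per group is given, the replicates were not left out in turn, no interval could be set on any ratio, and the depth that limits the low means is unknown. No paired analysis was possible because the table gives 1 mean per group and no value per replicate. With 1 added to each mean, the targets at least 2-fold higher in Scd2f/f TAL than in untreated liver went from 3 to 1, the targets at least 2-fold lower in Scd2f/f;CC than in Scd2f/f TAL from 1 to 0, and those higher in Scd2f/f;CC TAL than in untreated liver from 1 to 0. By construction, adding a constant shrinks the ratios of low means most. It moved 4 of 30 ratios of single targets, before taking logs, by more than 1.5-fold, those of Cdkn1a over untreated liver in both genotypes and both of Phlda3 that involve Scd2f/f TAL. No log2 ratio of a target changed sign with a pseudocount of 0.1 or 1 or with centring on the median of all counted genes, and with 0.1 or centring every count of targets was as given. With a limit of 3-fold, the counts of targets were 1, 0 and 1 in the same order, and with 1.5-fold 3, 2 and 2. The median log2 ratio of the targets moved by less than 1.5-fold under every one of these alternatives, between 0.38 and 0.50, between -0.30 and -0.29, and between 0.17 and 0.21. The counts over all genes at 2-fold were 754 higher and 341 lower genes for Scd2f/f TAL over untreated liver, 76 and 181 for Scd2f/f;CC over Scd2f/f TAL, and 531 and 301 for Scd2f/f;CC TAL over untreated liver. They were 451 higher and 223 lower genes for Scd2f/f TAL over untreated liver, 37 and 83 for Scd2f/f;CC over Scd2f/f TAL, and 261 and 196 for Scd2f/f;CC TAL over untreated liver with 1 added to each mean. Without a limit on the mean, they were 1570 higher and 785 lower genes for Scd2f/f TAL over untreated liver, 305 and 682 for Scd2f/f;CC over Scd2f/f TAL, and 1074 and 777 for Scd2f/f;CC TAL over untreated liver. With a mean of at least 10, they were 145 higher and 147 lower genes for Scd2f/f TAL over untreated liver, 28 and 34 for Scd2f/f;CC over Scd2f/f TAL, and 128 and 124 for Scd2f/f;CC TAL over untreated liver.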

Other observations

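Several listed genes stayed under the limit of a mean of 1 and were left out of the counts made above that limit. Of the p53 targets among them, Psrc1, which regulates spindle microtubules, had group means of 0.0821 in untreated liver, 0.248 in treated Scd2f/f and 0.102 in treated Scd2f/f;CC mice. The death receptor Tnfrsf10b had means of 0.264, 0.527 and 0.213, and Gtse1, which binds p53 in G2 phase, 0.143, 0.540 and 0.374. Of the 7 targets under the limit, these 3 and Trp53i13 were highest in Scd2f/f TAL, as Phlda3 was. Sfn was highest in Scd2f/f;CC TAL, with means of 0.178, 0.273 and 0.313. Pidd1, at 0.678, 0.509 and 0.458, and Ak1 were highest in untreated liver. Ak1, an adenylate kinase, had means of 0.754, 0.273 and 0.0805, lower with the regimen and lower again in Scd2f/f;CC TAL. Cdkn2a, whose alternative reading frame encodes the MDM2 inhibitor ARF, had means of 0.0771, 0.137 and 0.102. Their ratios are not given, since the lowest means in the table are 0.0348 in Scd2f/f TAL and 0.04 in untreated liver. These genes were named after their values were seen.

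GENCODE M21 also places AC167363.2, a transcript still to be tested experimentally, over Cdkn1a on the opposite strand and Gm12981 within Sesn2, neither of which was matched in the table. The methods of the study do not say whether the library marks strand. If it does not, reads of AC167363.2 and of Cdkn1a cannot be told apart where they overlap.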
